A study of Mus musculus with 9 samples.

Results

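The enzymes and carriers that build phosphatidylcholine and phosphatidylethanolamine were followed at the transcript level in mouse liver. They are 10 genes of the 54532 listed in the deposited table, chosen by name as the choline carrier Slc44a1, the kinases Chka, Chkb, Etnk1 and Etnk2, the cytidylyl transferases Pcyt1a and Pcyt2, the phosphotransferases Chpt1 and Cept1, and the acyltransferase Lpcat3. Poly-A RNA of 9 liver samples was sequenced, 3 libraries in each of 3 groups: Cth knockout with 1% betaine in its drinking water, Cth knockout on plain drinking water, and WT on plain drinking water. Betaine was given to knockout mice and not to WT mice, so its comparisons are with the knockout and with unsupplemented WT. The labels give no strain, sex, age, batch or knockout allele, and they do not say that replicates are separate animals, so p-values measure the spread between these samples, which may be technical. The series was designed to ask what Cth, cystathionine gamma-lyase, does in long-standing disease of the liver.

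Both phospholipids are made in the endoplasmic reticulum by parallel routes, known as the Kennedy pathway. Choline or ethanolamine is taken up, phosphorylated by a kinase, activated with CTP by a cytidylyl transferase, and joined to diacylglycerol by a phosphotransferase. Liver also methylates phosphatidylethanolamine to phosphatidylcholine with Pemt, which uses S-adenosylmethionine, the methyl donor of the same methionine cycle that feeds homocysteine to the transsulfuration enzymes Cbs and Cth. Choline that is not phosphorylated can be oxidised to betaine, which returns a methyl group to homocysteine.

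Cth, the gene removed, was listed at 0.319, 0.309 and 0.781 FPKM in the betaine-supplemented knockout. It was at 0.583, 0.278 and 0.770 FPKM in the knockout and at 285.4, 256.6 and 219.0 FPKM in WT. All 9 libraries thus went with their genotype labels. Cth overlapped between the knockout groups, so it does not check the betaine label. FPKM scale fragments by exon length and library size, so levels of different genes can be set side by side. Exon length moved with the group differences (below), which limits comparing the order of genes between groups. Hepatocyte markers (Alb, Apoa1, Ttr, Hnf4a, Cyp2e1 and Cps1) summed to 31300 to 44500 FPKM in the betaine group, 39000 to 50300 FPKM in the knockout and 45900 to 63700 FPKM in WT. The 3 skeletal muscle markers reached at most 0.0386 FPKM in sum, and the 3 adipocyte markers at most 0.708 FPKM. WT replicate 3 stood apart: Xist was at 26.6 FPKM there and at most 0.0124 FPKM in the other 8 libraries, and the Y-linked Ddx3y, Eif2s3y, Kdm5d and Uty were at 0 there and at 0.763 FPKM or above elsewhere. These values are those of a female sample, and the other 8 libraries had those of male samples. WT alone held both, so sex is mixed into the comparisons with WT, and its part was not tested. Calls of the 9 tested genes and of the named pathway genes against WT that ended without WT replicate 3 are given with that value.

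Without Cth, transcripts of the choline carrier Slc44a1, the rate-limiting cytidylyl transferase Pcyt1a and the ethanolamine kinase Etnk1 fell below WT, and none of the 9 genes that could be tested rose, where 25.6% of all tested genes changed (12.7% fell). Pcyt1a stood at 36.5% and Etnk1 at 41.5% of their WT means, while Slc44a1 stood at 72.1%, and the Slc44a1 call ended without WT replicate 3 (adjusted p = 0.0984, limma) or with each library's trend with exon length removed (adjusted p = 0.257, limma). In the betaine-supplemented knockout, Pcyt1a stood at 227% of the knockout mean and 82.6% of the WT mean, whereas Etnk1 stood at 50.1% of the WT mean, and Etnk1, Cept1 and Chka were the 3 that fell below WT, where 5.78% of all genes fell. The Chka call held in 2 of 9 fits that left out a library. It ended with the length trend removed (adjusted p = 0.179, limma). In a fit of the betaine and WT libraries alone, none of the 3 passed. None of the 9 passed the threshold between the betaine group and the knockout, Pcyt1a included, and 0.0422% of all genes did.

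**Figure D1:**
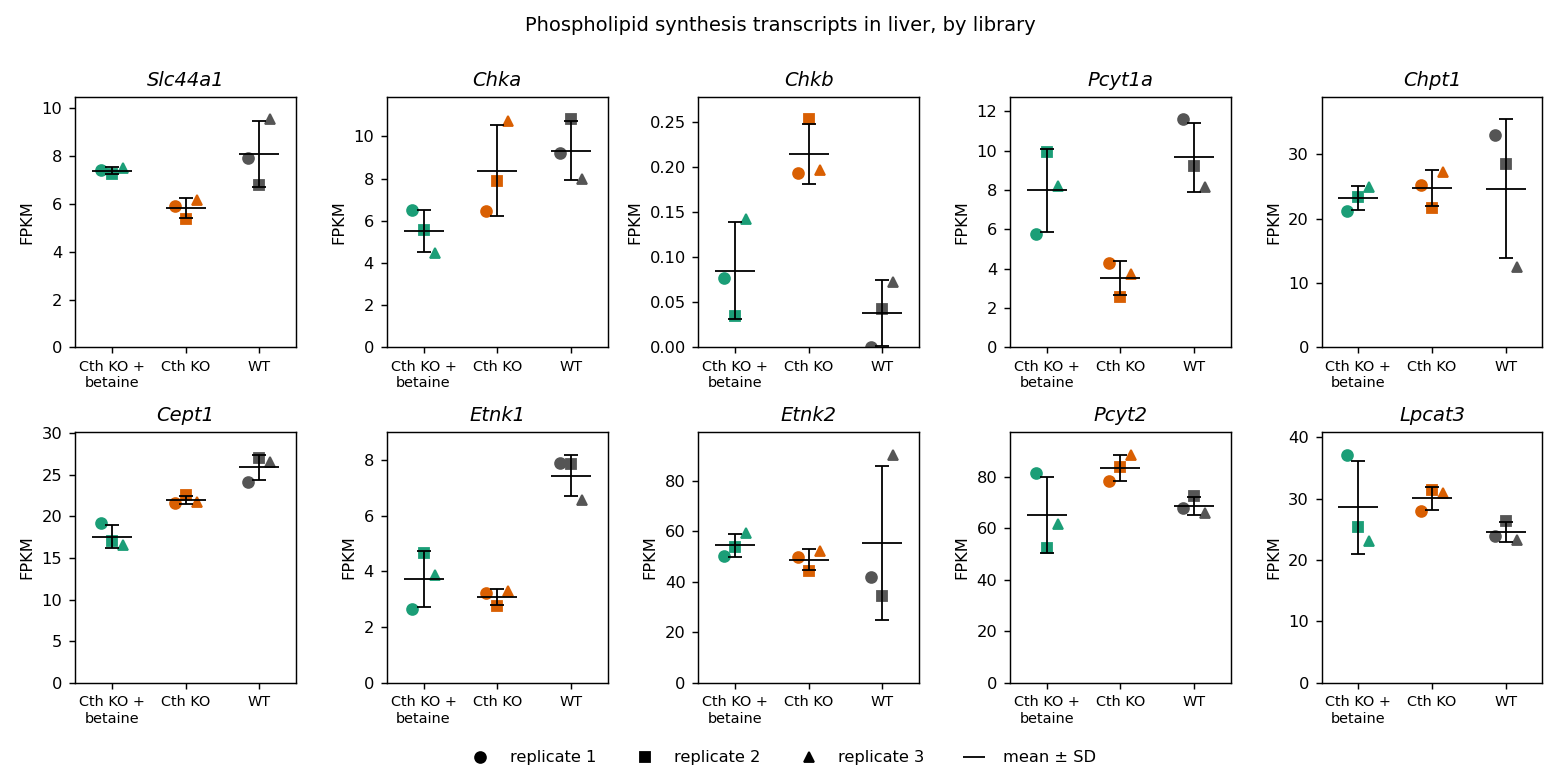
FPKM of the 10 genes (y axis of each panel, from 0) in the betaine-supplemented Cth knockout, the Cth knockout and WT (x axis), with 1 symbol per library and bars for mean ± SD (n = 3). The 3 knockout libraries lie below all WT libraries for Pcyt1a, Etnk1, Slc44a1 and Cept1, and WT replicate 3 lies away from the other WT libraries for Chpt1 and Etnk2.

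Slc44a1, which carries choline across the plasma membrane and into mitochondria, lies on chromosome 4 (GRCm38, positions 53440413 to 53622478, plus strand). It was at 7.42, 7.24 and 7.51 FPKM in the betaine group, 5.91, 5.39 and 6.18 FPKM in the knockout, and 7.91, 6.81 and 9.54 FPKM in WT. Every knockout library was below every library of the other groups, and the betaine group lay inside the WT range. The log2 fold change, on the scale of log2(FPKM + 0.5), was -0.43 ± 0.13 (SE of the fit over 9 libraries) for knockout minus WT (adjusted p = 0.0427, limma with Benjamini-Hochberg adjustment over all genes tested). Betaine minus knockout was 0.32 ± 0.13 (adjusted p = 0.201, limma), which did not pass. The fall in the knockout passed in 2 of 9 fits that each left out 1 library, without WT replicate 2 or without betaine replicate 1, and stood at -0.31 (adjusted p = 0.0984, limma) without WT replicate 3. It was -0.21 (adjusted p = 0.257, limma) once each library's trend with exon length was removed.

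The choline kinases, which trap choline in the cell as phosphocholine, were represented by Chka. Its locus is on chromosome 19, positions 3851773 to 3894369. Chka was at 6.49, 5.54 and 4.48 FPKM in the betaine group, 6.48, 7.89 and 10.7 FPKM in the knockout, and 9.19, 10.8 and 7.99 FPKM in WT. The betaine libraries were all below WT, with the nearest betaine library at about the level of the lowest knockout library, and the knockout spanned most of the WT range. Betaine minus WT was -0.71 ± 0.20 (adjusted p = 0.0493, limma) and knockout minus WT -0.17 ± 0.20 (adjusted p = 0.561, limma). The Chka call held in 2 of 9 fits that left out a library (without WT replicate 3, adjusted p = 0.0428, and without knockout replicate 3, adjusted p = 0.0460, both limma). It ended with the length trend removed (-0.47, adjusted p = 0.179, limma).

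Chkb, the other kinase of this step, was barely measured, with 4, 2 and 7 reads in the betaine group, 8, 11 and 9 reads in the knockout, and 0, 2 and 4 reads in WT. These equal 0.0353 to 0.142 FPKM in the betaine group, 0.193 to 0.253 FPKM in the knockout and 0 to 0.0723 FPKM in WT. The knockout libraries were above the others, but the gene was under the filter of a mean of 0.5 FPKM and was not tested. Of its exon bases, 50.7% are shared with Gm44502, a neighbour on the same strand listed at 0 in all libraries, so how reads of the shared part were counted can set its level.

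Pcyt1a makes CDP-choline, the step known to set the pace of the choline route, and its enzyme is activated on membranes poor in phosphatidylcholine. The gene lies on chromosome 16, positions 32430921 to 32475070, plus strand. It was at 5.75, 9.94 and 8.22 FPKM in the betaine group, 4.26, 2.58 and 3.71 FPKM in the knockout, and 11.6, 9.22 and 8.14 FPKM in WT. All knockout libraries were below all others, and the betaine libraries were spread over a wide range of which the upper part overlapped WT. Knockout minus WT was -1.35 ± 0.23 (95% interval -1.86 to -0.83, adjusted p = 0.00681, limma), and this fall passed in 9 of 9 fits that left out a library (-1.48 to -1.17). Betaine minus knockout was 1.07 ± 0.23 (95% interval 0.55 to 1.58, adjusted p = 0.0837, limma), which did not pass, and betaine minus WT was -0.28 ± 0.23 (95% interval -0.79 to 0.24, adjusted p = 0.443, limma). The betaine difference passed without betaine replicate 1, the lowest of its group (1.27, adjusted p = 0.0273, limma), and without WT replicate 3 (adjusted p = 0.0499, limma), and failed in the other 7 such fits. These values rest on 271 to 1365 reads per library.

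The promoters of the 3 genes that fell together in the knockout are shown here as 300 bases from RefSeq (GRCm38.p6), 250 before and 50 after the start site, 5′ to 3′, taking the most upstream start where several are listed. They are Pcyt1a at chr16:32430671-32430970, Etnk1 at chr6:143166980-143167279 and Slc44a1 at chr4:53440163-53440462, all on the plus strand. Capitals mark matches, on either strand, to the sterol regulatory element TCACNCCAC, the GC box GGGCGG, the CCAAT box CCAAT, the TATA box TATAAA and the E-box CACGTG.
Pcyt1a: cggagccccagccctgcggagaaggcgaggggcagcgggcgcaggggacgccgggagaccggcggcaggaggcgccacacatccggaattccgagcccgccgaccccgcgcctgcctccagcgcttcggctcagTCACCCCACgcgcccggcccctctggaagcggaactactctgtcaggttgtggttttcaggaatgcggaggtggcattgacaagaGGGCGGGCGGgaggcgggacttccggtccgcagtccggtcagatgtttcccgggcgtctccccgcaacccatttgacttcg
Etnk1: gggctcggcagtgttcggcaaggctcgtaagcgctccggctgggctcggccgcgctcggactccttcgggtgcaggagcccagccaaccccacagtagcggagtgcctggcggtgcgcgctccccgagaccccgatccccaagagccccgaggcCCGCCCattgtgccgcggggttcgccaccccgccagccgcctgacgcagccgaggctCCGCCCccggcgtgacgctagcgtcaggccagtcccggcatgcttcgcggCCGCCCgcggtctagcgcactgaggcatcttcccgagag
Slc44a1: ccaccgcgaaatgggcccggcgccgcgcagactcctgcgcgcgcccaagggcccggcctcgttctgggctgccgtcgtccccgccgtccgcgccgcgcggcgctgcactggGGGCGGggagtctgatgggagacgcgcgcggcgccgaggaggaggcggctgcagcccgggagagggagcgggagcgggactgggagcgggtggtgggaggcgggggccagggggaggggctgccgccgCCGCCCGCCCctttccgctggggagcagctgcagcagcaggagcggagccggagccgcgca
The Pcyt1a window held TCACCCCAC beginning 116 bases before the start site and 2 overlapping GC boxes beginning 31 and 27 bases before it. The Etnk1 window held 3 GC boxes read on the other strand, beginning 96 and 39 bases before the start and at position 12 after it. Slc44a1 held 3, beginning 139, 11 and 7 bases before the start, the last 2 overlapping. All 3 windows were rich in G and C (69.7%, 73.7% and 79.7%), against a median of 52.7% over 32851 mouse promoters of this length. Among those promoters 1.24% held the sterol regulatory element, 35.7% a GC box, 37.4% a CCAAT box, 13.6% a TATA box and 7.15% an E-box. Promoters were matched for 9 of the 10 genes, all but Pcyt2. A GC box was in all 9, those of genes that did not fall included, and the sterol regulatory element was in that of Pcyt1a alone.

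Chpt1 and Cept1 catalyse the last step, joining the activated head group to diacylglycerol. Chpt1 takes CDP-choline, and Cept1 takes CDP-choline or CDP-ethanolamine. Cept1 (chromosome 3, positions 106502260 to 106547802, minus strand) was at 19.2, 17.0 and 16.5 FPKM in the betaine group, 21.6, 22.5 and 21.8 FPKM in the knockout, and 24.2, 27.0 and 26.5 FPKM in WT. The 3 groups did not overlap and stood in steps, with WT highest and the betaine group lowest. Betaine minus WT was -0.55 ± 0.11 (95% interval -0.80 to -0.30, adjusted p = 0.0177, limma), betaine minus knockout -0.32 ± 0.11 (adjusted p = 0.145, limma) and knockout minus WT -0.23 ± 0.11 (adjusted p = 0.148, limma). The fall against WT missed the threshold without WT replicate 2 (adjusted p = 0.0549, limma) or without betaine replicate 3 (adjusted p = 0.0715, limma). Cept1 shares 24.7% of its exon bases with Dennd2d on the opposite strand, which was listed at 1.25 FPKM at most. Whether counting used strand is not given in the sources used here.

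Chpt1 was at 21.2, 23.4 and 24.9 FPKM in the betaine group, 25.3, 21.7 and 27.2 FPKM in the knockout, and 33.0, 28.5 and 12.4 FPKM in WT. WT replicate 3 was the lowest of all 9 libraries and the other 2 WT libraries the highest. The knockout differed from WT by 0.11 ± 0.31 (adjusted p = 0.807, limma), and without WT replicate 3 it was -0.31 (adjusted p = 0.139, limma). With it WT averaged 24.6 ± 10.8 FPKM (SD, n = 3), and the 95% interval of the difference ran from -0.58 to 0.80.

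On the ethanolamine side, Etnk1 and Etnk2 encode the kinases that make phosphoethanolamine, Etnk2 being the form known to be abundant in liver. Etnk1 lies on chromosome 6, positions 143167221 to 143232307, plus strand. It was at 2.64, 4.67 and 3.88 FPKM in the betaine group, 3.22, 2.76 and 3.28 FPKM in the knockout, and 7.88, 7.87 and 6.58 FPKM in WT. All 6 libraries without Cth were below all 3 WT libraries, and the betaine group overlapped the knockout. Knockout minus WT was -1.15 ± 0.18 (95% interval -1.55 to -0.74, adjusted p = 0.0063, limma) and passed in 9 of 9 fits that left out a library. Betaine minus WT was -0.94 ± 0.18 (adjusted p = 0.0164, limma) and passed in 7 of 9, missing without WT replicate 1 (adjusted p = 0.0533) and without betaine replicate 3 (adjusted p = 0.0507). Betaine minus knockout was 0.21 ± 0.18 (95% interval -0.20 to 0.62, adjusted p = 0.518, limma).

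Etnk2 was at 50.3, 53.9 and 59.3 FPKM in the betaine group, 49.95, 44.2 and 52.3 FPKM in the knockout, and 41.9, 34.3 and 90.4 FPKM in WT. WT replicate 3 was the highest library of all and the other 2 WT libraries the lowest. No comparison passed with all libraries, the log2 fold changes lying between -0.06 and 0.16. Without WT replicate 3, betaine minus WT was 0.52 (adjusted p = 0.0481, limma) and knockout minus WT 0.36 (adjusted p = 0.0998, limma). In that library Etnk2 was high and Chpt1 low relative to the other WT libraries.

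Pcyt2, which makes CDP-ethanolamine and is known as the controlling enzyme of that route, was the most abundant of the 10 genes in the mean of every group. It was at 81.4, 52.3 and 61.7 FPKM in the betaine group, 78.4, 83.7 and 88.5 FPKM in the knockout, and 67.7, 72.5 and 65.9 FPKM in WT. The knockout libraries were all above WT, and the betaine group spread from below WT into the knockout range. Knockout minus WT was 0.28 ± 0.16 (95% interval -0.09 to 0.65, adjusted p = 0.227, limma), a sign that turned to -0.14 on the TPM scale, where each library is set to the same sum. The median of all genes was -0.36 on that scale, so Pcyt2 stayed above it. Betaine minus knockout was -0.38 ± 0.16 (adjusted p = 0.210, limma) and passed without betaine replicate 1 (-0.55, adjusted p = 0.0473, limma).

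Lpcat3 remodels finished phospholipids by adding polyunsaturated fatty acids to lysophosphatidylcholine and is a known target of liver X receptors. It was at 37.1, 25.4 and 23.1 FPKM in the betaine group, 27.9, 31.4 and 30.9 FPKM in the knockout, and 23.97, 26.3 and 23.3 FPKM in WT. The knockout libraries lay above WT, and betaine replicate 1 was the highest of the 9 while the other 2 betaine libraries were within or next to the WT range. Knockout minus WT was 0.29 ± 0.17 (95% interval -0.10 to 0.67, adjusted p = 0.236, limma) and, like Pcyt2, took the other sign on the TPM scale (-0.13, where the median of all genes was -0.36). Lpcat3 shares 10.2% of its exon bases with Emg1 on the opposite strand, which reached 12.2 FPKM.

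**Figure D2:**
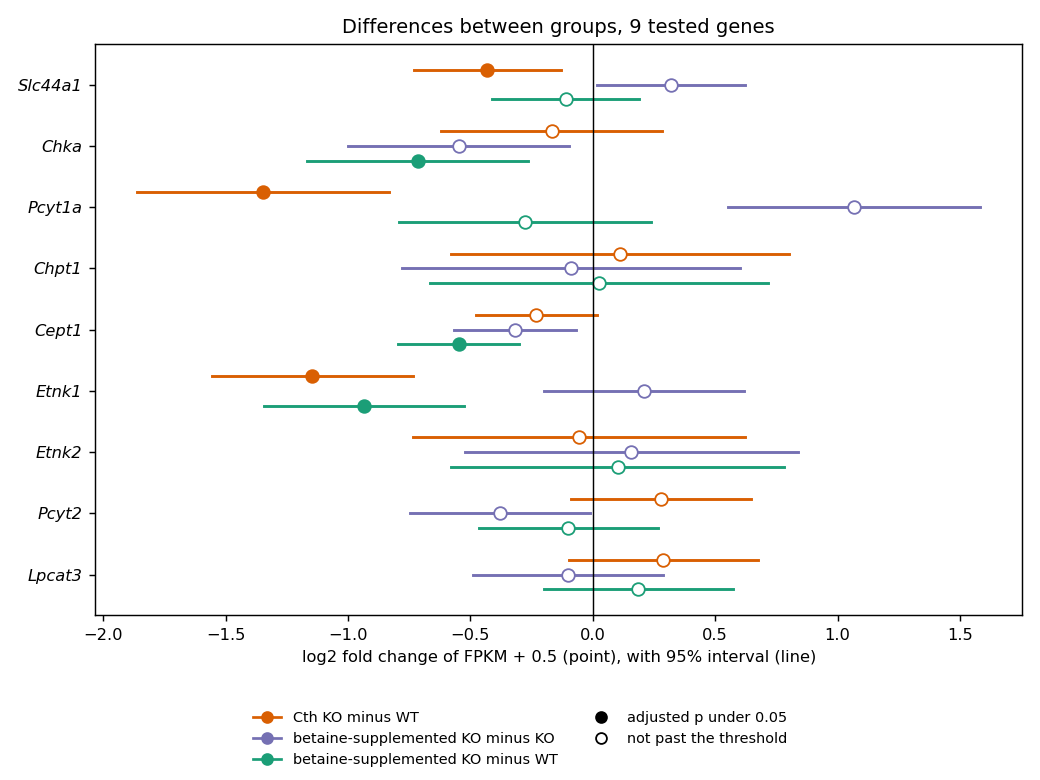
Log2 fold change of FPKM + 0.5 (x axis, points) with its 95% interval (lines) for the 9 tested genes (rows) in knockout minus WT, the betaine group minus the knockout, and the betaine group minus WT. Filled points passed an adjusted p of 0.05: Slc44a1, Pcyt1a and Etnk1 for knockout minus WT, Chka, Cept1 and Etnk1 for betaine minus WT, and none for betaine minus knockout.

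Counted together, 9 of the 10 genes passed the filter on low values. For knockout minus WT, 0 rose and 3 fell (33.3% called), where 25.6% of all 11852 tested genes were called, 1519 higher (12.8%) and 1510 lower (12.7%). At an unadjusted p under 0.05 it was the same count of 3, against 40.0% of all genes. With 9 genes, 3 calls are near the share of all genes. Their median log2 fold change was -0.17, against 0.02 over all genes tested. The FPKM of 6 of the 9 did not overlap between knockout and WT, against 46.8% of all genes. For betaine minus WT, 0 rose and 3 fell, where 11.7% of all genes were called (5.87% higher and 5.78% lower), and the median of the 9 was -0.11, against 0.005 over all genes. The same 3 were the ones whose FPKM did not overlap with WT, against 32.2% of all genes. At an unadjusted p under 0.05 there were also 3, against 30.5%. These 2 comparisons share the WT libraries.

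For betaine minus knockout, 0 of the 9 genes passed in limma, where 0.0422% of all tested genes were called, 2 higher (0.0169%) and 3 lower (0.0253%). At an unadjusted p under 0.05 there were 5 of the 9 (Pcyt1a and Slc44a1 on the positive side, Cept1, Chka and Pcyt2 on the negative side), against 22.5% of all genes. No other tool was run. FPKM did not overlap for 3 of the 9 (Pcyt1a, Slc44a1 and Cept1), against 30.3% of all genes. The median of the 9 was -0.09, against -0.00156 over all genes. On the TPM scale, which moves the median of all genes to 0.33 in this comparison, Pcyt1a at 1.47 (adjusted p = 0.0281, limma) and Slc44a1 at 0.68 (adjusted p = 0.0449, limma) were called, along with 1681 higher and 73 lower genes in all.

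The scaling of libraries bears on these signs. The deposited FPKM summed to 379601 to 477667 in the betaine group, 533733 to 584197 in the knockout and 373773 to 449224 in WT. Rescaling each library to the same sum (TPM) put the median of all genes at -0.36 for knockout minus WT and turned the split of calls to 588 higher and 3674 lower. Scaling to each library's own read total put that median at -0.09, with 1169 higher and 1952 lower. Pcyt1a (-1.81 on the TPM scale) and Etnk1 (-1.60) stayed far below those medians, and Slc44a1 (-0.85) below them by about its original change. Cept1 passed for knockout minus WT under both (-0.65, adjusted p = 0.00625, on the TPM scale, and -0.35, adjusted p = 0.0423, on its own read total, limma). The median of all genes moved down under both as well, to -0.36 and -0.09. On the deposited scale Cept1 was at -0.23 and not called, against a median of 0.02. The Chka call for betaine minus WT ended under both (adjusted p = 0.0505 and 0.0697, limma).

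Within a library, the scaling changes the ratio of parallel enzymes only through the constant added to FPKM, which weighs most on low genes. A trend with exon length stays in the ratio. Pcyt1a has 7412 exon bases and Pcyt2 4346, and Etnk1 has 14151 and Etnk2 4566. With that trend removed, knockout minus WT was -1.11 for Pcyt1a and 0.35 for Pcyt2, and -0.81 for Etnk1 and 0.03 for Etnk2. The part of that trend in the ratio differences was not tested. The log2 ratio of Pcyt1a to Pcyt2 was -3.71, -2.34 and -2.83 in the betaine group, -4.05, -4.77 and -4.40 in the knockout, and -2.50, -2.91 and -2.94 in WT. Every knockout library was below every other library, with the least Pcyt1a for its Pcyt2. The difference was -1.63 for knockout minus WT and 1.45 for betaine minus knockout, each with p = 0.1 in an exact two-sided permutation test, the smallest p that 3 against 3 allows, and betaine minus WT was -0.18 (exact p = 0.9). Etnk1 to Etnk2 averaged -3.73 in the betaine group, -3.78 in the knockout and -2.69 in WT. The knockout difference from WT was -1.09 (exact p = 0.1), although WT replicate 3, at -3.68, lay next to the knockout libraries. Chpt1 to Cept1 overlapped between groups in all 3 comparisons (exact p from 0.2 to 0.7). For Chka to Chkb, betaine minus WT was -0.83 (exact p = 0.1), a ratio over a gene near 0 that depends on the pseudocount. Of 12 such tests the lowest Benjamini-Hochberg value was 0.3.

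**Figure D3:**
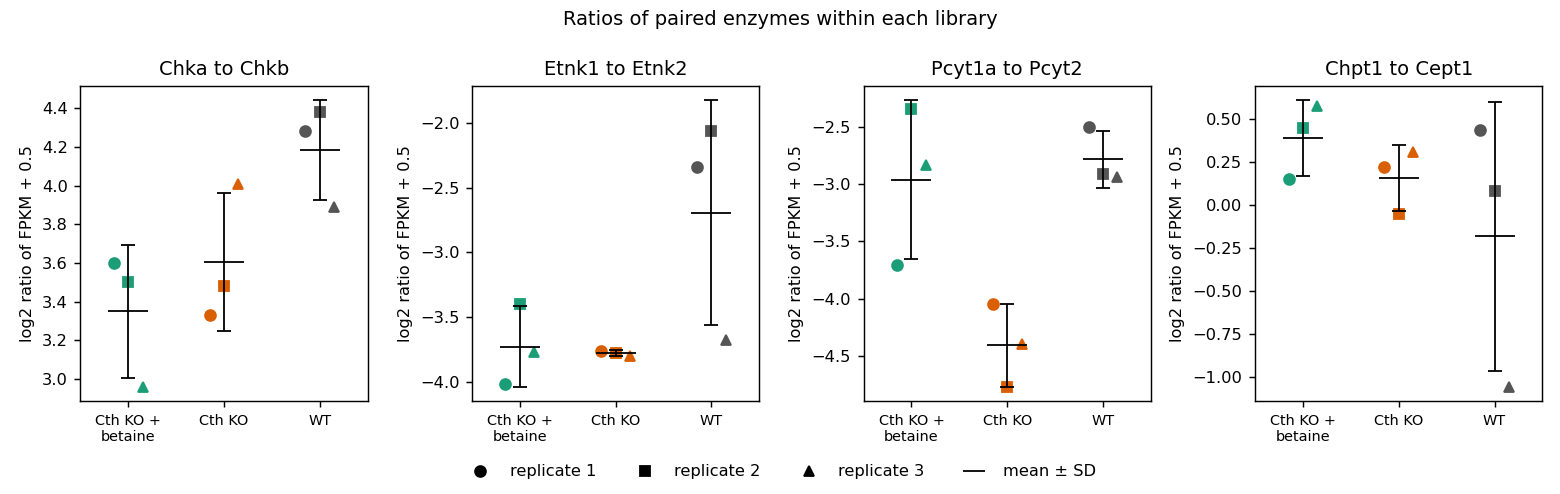
Log2 ratio of FPKM + 0.5 of parallel enzymes within each library (y axis of each panel, not from 0) in the betaine-supplemented Cth knockout, the Cth knockout and WT (x axis), with 1 symbol per library and mean ± SD (n = 3). For Pcyt1a to Pcyt2 the knockout libraries lie between -4.77 and -4.05, under all others.

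Exon length moved with the knockout difference across all genes. The 3950 shortest tested genes (up to 2677 exon bases) had a median knockout-minus-WT difference of 0.35, the 3950 of middle length 0.01 and the 3949 longest (from 5245 bases) -0.25. None of the 9 genes was among the shortest. Cept1, Etnk2, Lpcat3 and Pcyt2 were of middle length, and Chka, Chpt1, Etnk1, Pcyt1a and Slc44a1 among the longest, with 14151 exon bases for Etnk1, 7412 for Pcyt1a and 6945 for Slc44a1. All 3 genes that fell in the knockout were among these, where 24.2% of genes fell. Pcyt1a and Etnk1 lay far down, in that 0.962% of long genes were at or below the value of Pcyt1a and 2.03% at or below that of Etnk1. With the trend removed from each library, Pcyt1a was at -1.11 (adjusted p = 0.0135, limma) and Etnk1 at -0.81 (adjusted p = 0.0159, limma) for knockout minus WT, and Etnk1 at -0.67 (adjusted p = 0.0375, limma) for betaine minus WT. Cept1, with 3116 exon bases, was at -0.63 (adjusted p = 0.0125, limma) for betaine minus WT. Removing the trend and WT replicate 3 together, an alternative chosen after the data were seen, left Pcyt1a at -1.23 (adjusted p = 0.0145, limma) and Etnk1 at -0.92 (adjusted p = 0.0148, limma) in the knockout, put Slc44a1 at -0.11 (adjusted p = 0.556, limma), and called Etnk2 higher than WT in the betaine group (0.55, adjusted p = 0.0295, limma) and in the knockout (0.45, adjusted p = 0.0456, limma).

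**Figure D4:**
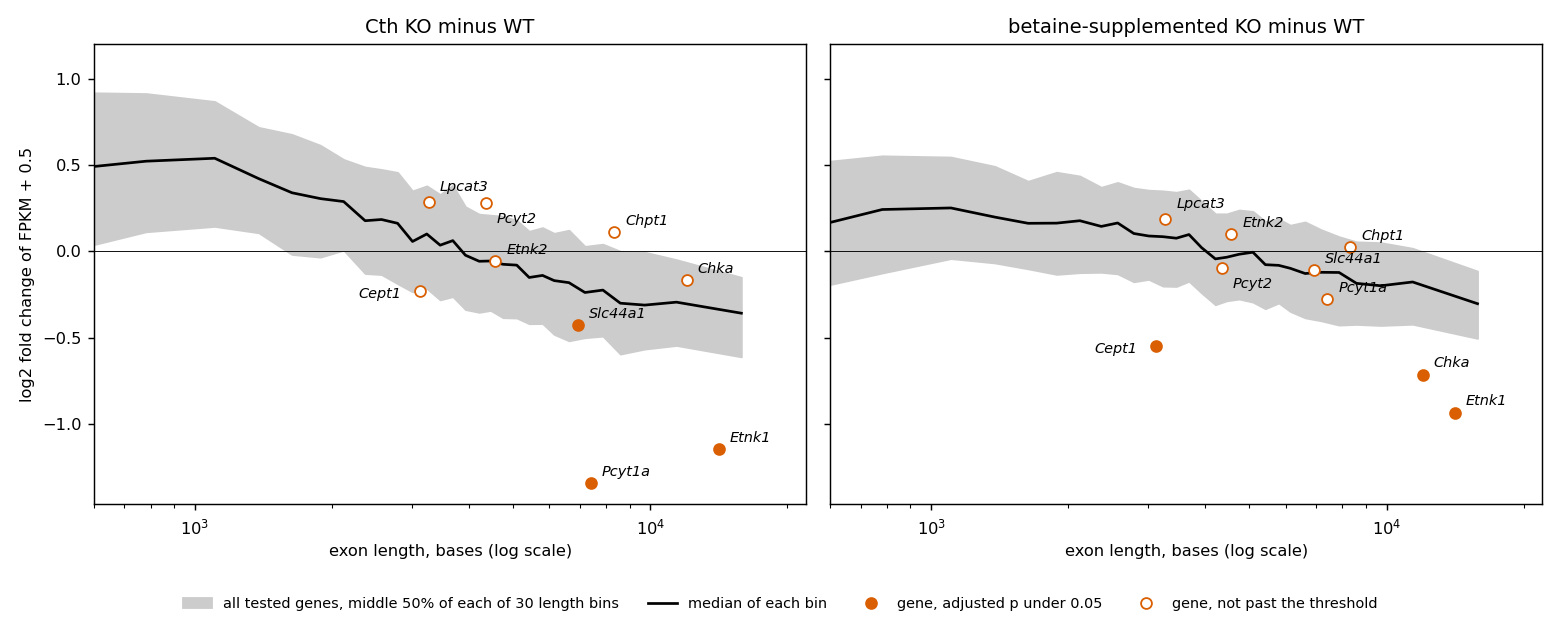
Log2 fold change of FPKM + 0.5 (y axis) against exon length in bases (x axis, log scale) for knockout minus WT and for betaine-supplemented knockout minus WT. The line and band are the median and middle 50% of all tested genes in 30 length bins, and the points are the 9 genes, filled where the adjusted p was under 0.05. Pcyt1a and Etnk1 lie below the band in the knockout, and Slc44a1 lies inside it.

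Markers of other liver cells were set beside these changes. None of the 6 Kupffer cell and macrophage markers was called in either comparison with WT. Their sum was 56.2 to 152 FPKM in the betaine group, 75.4 to 89.9 FPKM in the knockout and 117 to 144 FPKM in WT. Of the 5 sinusoidal endothelium markers, Kdr fell in the knockout (-0.80, adjusted p = 0.0436, limma) and Clec4g in the betaine group (-0.55, adjusted p = 0.0490, limma, both against WT). The endothelial sum was 15.3 to 24.3 FPKM in the betaine group, 19.0 to 24.5 FPKM in the knockout and 24.6 to 42.2 FPKM in WT. No marker of the 6 for stellate cells or of the 4 tested for cholangiocytes was called. Summed markers reached at most 1.67 FPKM for T cells, 2.58 FPKM for B cells and 7.41 FPKM for neutrophils. Erythroid markers summed to 49.4 to 111 FPKM in the betaine group, 59.2 to 105 FPKM in the knockout and 24.3 to 285 FPKM in WT. Of the exocrine pancreas markers Cpa1 and Pnlip were at 0 in every library, and Cela1 rose in the betaine group (0.79) and in the knockout (1.03) against WT. Among 6 hepatocyte markers Hnf4a fell in both (-0.97 for the betaine group and -0.66 for the knockout against WT), Cps1 fell (-1.42) and Apoa1 rose (0.81) in the knockout. The part of these cells in the changes of Pcyt1a, Etnk1 and Cept1 was not tested, and fewer cells of a type cannot be told apart from less RNA per cell in whole liver.

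The order of levels changed around Pcyt1a and between Cept1 and Lpcat3. Cept1 ranked 3 in WT and 5 in the other groups, and Lpcat3 the reverse. Their ranges overlapped in WT, and in the knockout and the betaine group Lpcat3 lay above Cept1 without overlap. In WT the means ran Pcyt2 (68.7 FPKM), Etnk2 (55.5), Cept1 (25.9), Chpt1 (24.6), Lpcat3 (24.5), Pcyt1a (9.65), Chka (9.33), Slc44a1 (8.08), Etnk1 (7.44) and Chkb (0.0383). The ranges of WT neighbours overlapped except between Etnk2 and Cept1, between Lpcat3 and Pcyt1a, and between Etnk1 and Chkb. In the knockout Pcyt1a (3.52 FPKM) stood below Chka (8.36 FPKM) and Slc44a1 (5.83 FPKM), without overlap, and overlapped Etnk1 (3.09 FPKM). In the betaine group Pcyt1a (7.97 FPKM) overlapped Slc44a1 (7.39 FPKM) again, and Chka (5.50 FPKM) and Etnk1 (3.73 FPKM), whose ranges overlapped, were the lowest of the 9. Pcyt2 and Etnk2 held the top 2 places in all 3 groups.

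Around these 10 genes, 56 further genes of phospholipid supply, remodelling, breakdown, transport and liver X receptor signalling were listed, of which 44 passed the filter. In the knockout 5 rose and 9 fell against WT (31.8%, against 25.6% of all genes), with a median of -0.07. In the betaine group 4 rose and 3 fell against WT (15.9%, against 11.7%), and against the knockout 0 passed in limma (0.0422% of all genes did), with 12 of the 44 at an unadjusted p under 0.05, where 22.5% of all genes were. Flvcr2, a choline carrier, was the 1 call among 5 tested carriers: it fell in the knockout (-0.78, adjusted p = 0.0397, limma), and not without WT replicate 3 (adjusted p = 0.1, limma). When a library was left out, the knockout count fell to 1 (knockout replicate 2), 5 (knockout replicate 3) and 6 (knockout replicate 1 or WT replicate 1), and was 7 without WT replicate 3 or betaine replicate 3. The count of the betaine group was 4 without WT replicate 2, knockout replicate 2 or 3 or betaine replicate 1, and 2 without betaine replicate 3. Calls over all 11852 genes fell too. For knockout minus WT they went from 3029 to 896, 1706 and 1957 without knockout replicate 2, 3 and 1. They were 1826, 2567 and 2618 without WT replicate 1, WT replicate 3 and betaine replicate 3. For betaine minus WT they went from 1381 to 638 without WT replicate 2, and to 859 and 910 without knockout replicate 2 and 3. They were 628 and 351 without betaine replicate 1 and 3.

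**Figure D5:**
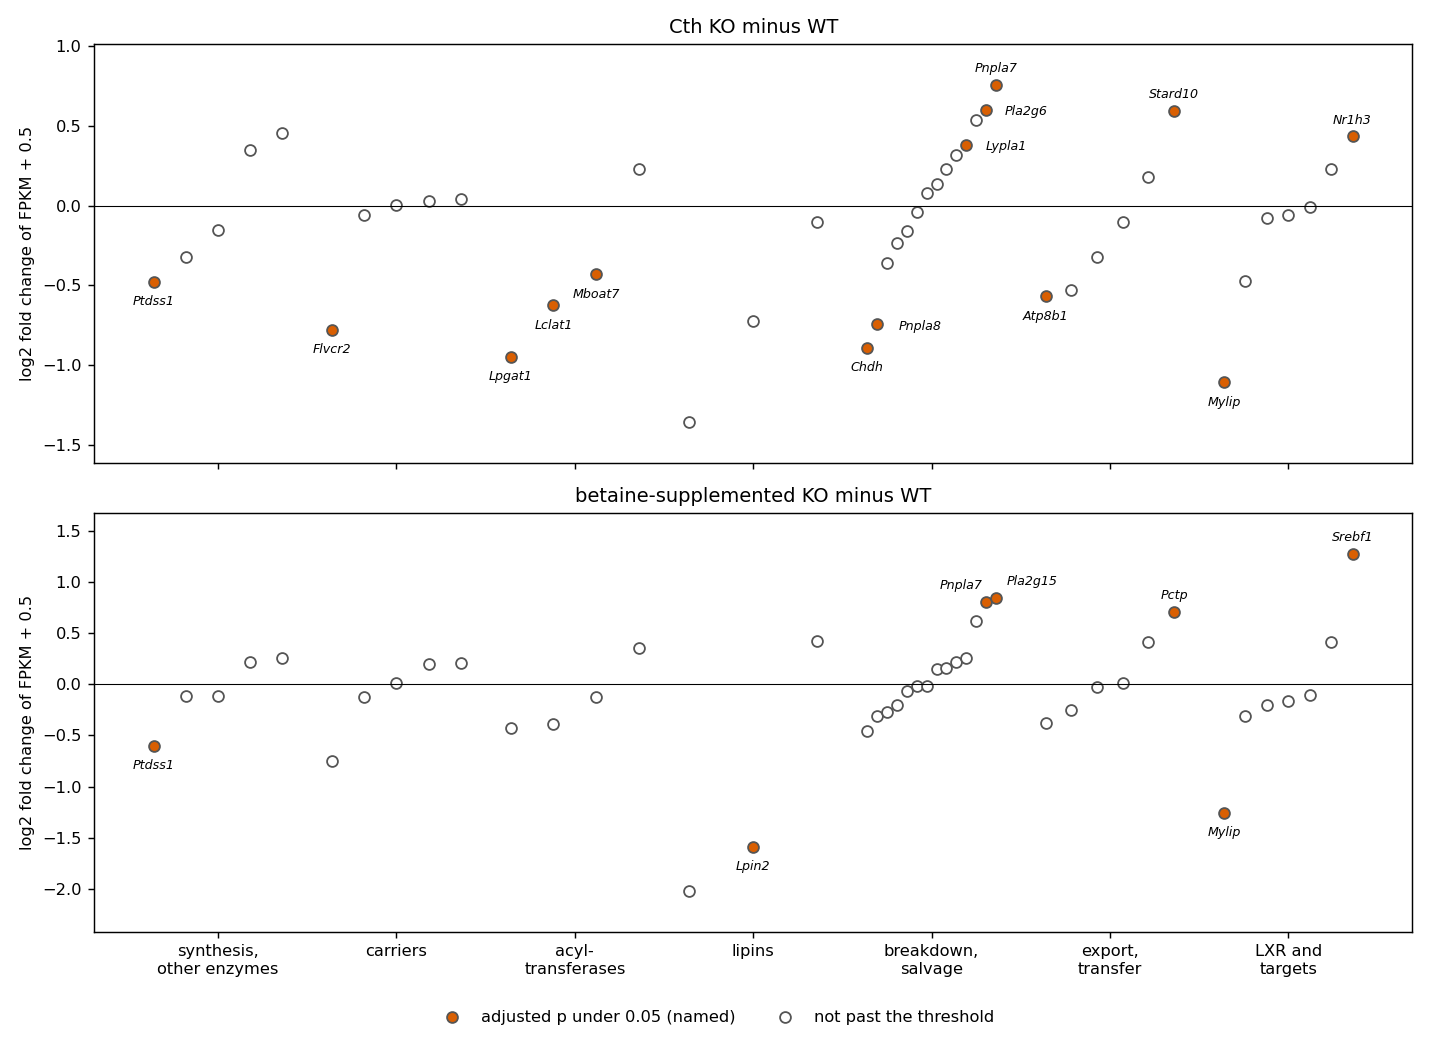
Log2 fold change of FPKM + 0.5 (y axis) for the 44 tested pathway genes in 7 lists (x axis, sorted by value within a list), for knockout minus WT and betaine-supplemented knockout minus WT. Filled, named points passed an adjusted p of 0.05. All 3 acyltransferases named for the knockout lie below 0, and Srebf1 is the highest point for the betaine group.

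Pemt, the methylation route to phosphatidylcholine, was at 182.2, 117.6 and 144.2 FPKM in the betaine group, 165.0, 178.3 and 172.1 FPKM in the knockout, and 125.3, 134.5 and 116.1 FPKM in WT. The knockout libraries were all above WT and the betaine libraries spread over both ranges. The knockout difference from WT was 0.46 ± 0.17 (adjusted p = 0.0695, limma), which did not pass. Selenoi, an ethanolamine phosphotransferase, was at -0.32 ± 0.16 (adjusted p = 0.170, limma) in the knockout, and Pcyt1b, a second gene for the choline cytidylyl transferase, was at 0.0929 FPKM at most and was not tested. Ptdss1, which makes phosphatidylserine by exchanging the head group of phosphatidylcholine, fell in the betaine group against WT (-0.60 ± 0.15, adjusted p = 0.0342, limma; called in 3 of 9 fits that left out a library) and in the knockout (-0.48, adjusted p = 0.0439; 1 of 9, and adjusted p = 0.0691 without WT replicate 3).

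Besides Lpcat3, 4 further acyltransferases that act on lysophospholipids were tested. Of these, 3 fell in the knockout and none rose, where 12.7% of all genes fell. Lpgat1 (7610 exon bases) and Mboat7 (8339) were among the longest genes, of which 24.2% fell. Lpgat1 was at 14.6, 20.9 and 26.4 FPKM in the betaine group, 13.8, 12.8 and 14.9 FPKM in the knockout, and 26.2, 26.9 and 28.1 FPKM in WT. Its fall in the knockout was -0.95 ± 0.19 (adjusted p = 0.0103, limma), called in 9 of 9 fits that left out a library. Lclat1, which acylates lysocardiolipin, fell by 0.63 on the log2 scale (adjusted p = 0.0123, limma). Mboat7, which acylates lysophosphatidylinositol, was the third (-0.43, adjusted p = 0.0383, limma), called in 2 of 9 such fits. It was at adjusted p = 0.0651 without WT replicate 3 and at -0.17 (adjusted p = 0.327, limma) with the length trend removed. The direction of Lpcat3, at 0.29 and not called, was opposite.

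Of 14 tested genes of phospholipid breakdown and head group salvage, 3 rose and 2 fell in the knockout (35.7% called, against 25.6% of all genes). Pnpla7, a lysophospholipase, was at 18.3, 15.1 and 19.8 FPKM in the betaine group, 17.3, 18.1 and 15.7 FPKM in the knockout, and 10.5, 11.3 and 8.05 FPKM in WT. Both groups without Cth lay above WT (0.81 ± 0.16, adjusted p = 0.0162, for betaine and 0.76 ± 0.16, adjusted p = 0.0110, for the knockout, limma). Lypla1, an acyl-protein thioesterase first described as a lysophospholipase, rose in the knockout (0.38, adjusted p = 0.0365, limma; 2 of 9 fits that left out a library), as did Pla2g6, a calcium-independent phospholipase (0.60, adjusted p = 0.0383, limma; 4 of 9). Neither passed without WT replicate 3 (adjusted p = 0.0670 and 0.0878, limma). Pnpla8, another such phospholipase, fell in the knockout (-0.74, adjusted p = 0.0125, limma), a call that ended with the length trend removed (-0.41, adjusted p = 0.0751). Chdh, the choline dehydrogenase that starts the conversion of choline to betaine, was at 20.1, 30.7 and 31.1 FPKM in the betaine group, 16.0, 13.1 and 15.9 FPKM in the knockout, and 35.5, 27.8 and 22.5 FPKM in WT. It fell in the knockout against WT (-0.89 ± 0.21, adjusted p = 0.0170, limma), and betaine minus knockout was 0.82 ± 0.21 (adjusted p = 0.0963, limma), so its groups ordered as those of Pcyt1a did. Pla2g15, the lysosomal phospholipase A2, rose in the betaine group against WT (0.84 ± 0.17, adjusted p = 0.0170, limma).

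Of 6 genes of phosphatidylcholine export and transfer, 2 were called in the knockout (33.3%, against 25.6% of all genes) and 1 in the betaine group (16.7%, against 11.7%). Stard10, a phospholipid transfer protein, rose in the knockout (0.60, adjusted p = 0.0336, limma). Atp8b1, the flippase of the canalicular membrane, fell (-0.57, adjusted p = 0.0348, limma). Pctp, the phosphatidylcholine transfer protein, rose in the betaine group against WT (0.71, adjusted p = 0.0432, limma). The first 2 held in 3 of 9 fits that left out a library and ended without WT replicate 3 (adjusted p = 0.0663 for Stard10 and 0.0732 for Atp8b1, limma). Pctp held in 1 of 9, and all 3 calls ended with the length trend removed (adjusted p = 0.0655, 0.108 and 0.0854, limma).

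Lpin2, a phosphatidate phosphatase that supplies the diacylglycerol used by Chpt1 and Cept1, was at 11.2, 9.39 and 8.91 FPKM in the betaine group, 18.2, 17.5 and 19.0 FPKM in the knockout, and 31.4, 19.8 and 45.1 FPKM in WT. The groups did not overlap and, as for Cept1, WT was highest and the betaine group lowest. Neither step passed alone, with knockout minus WT at -0.72 (adjusted p = 0.0587, limma) and betaine minus knockout at -0.86 (adjusted p = 0.115, limma). Betaine minus WT was -1.59 ± 0.25 (adjusted p = 0.00855, limma), called in 9 of 9 fits that left out a library, and -1.31 (adjusted p = 0.0065, limma) without WT replicate 3. Lpin1 was at 112.6 FPKM in WT replicate 3 and at 9.22 FPKM or below in the other 8 libraries.

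Srebf1, a lipogenic transcription factor gene induced by liver X receptors, was at 47.3, 47.4 and 34.0 FPKM in the betaine group, 14.9, 16.7 and 17.3 FPKM in the knockout, and 12.6, 18.1 and 22.4 FPKM in WT. All betaine libraries were above all others. Betaine minus WT was 1.28 ± 0.21 (adjusted p = 0.0103, limma), called in 9 of 9 fits that left out a library, and betaine minus knockout was 1.35 ± 0.21 (adjusted p = 0.0608, limma). Mylip, another liver X receptor target, fell in both groups without Cth (-1.26, adjusted p = 0.0444, for betaine and -1.11, adjusted p = 0.0407, for the knockout, against WT, limma), but without WT replicate 3 neither passed (adjusted p = 0.0642 and 0.0790). Of the 7 genes of that list, 1 rose and 1 fell in each comparison with WT, 28.6% each time, against 11.7% of all genes called for the betaine group and 25.6% for the knockout. The gene that rose in the knockout was Nr1h3, which encodes liver X receptor alpha (0.44, adjusted p = 0.0465, limma; 2 of 9 fits that left out a library). It did not pass without WT replicate 3 (adjusted p = 0.0968, limma) or with the length trend removed (adjusted p = 0.141, limma).

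For the 5 genes called in any comparison, the 3 genes with the most similar course over the 9 libraries were found by the root mean square difference of log2 values centred on each gene's mean. Vcl (0.11), Cfb (0.14) and Colgalt1 (0.15) were nearest to Pcyt1a, whose median distance to all genes was 0.67. In the knockout Vcl averaged 0.693 FPKM and Cfb 0.485 FPKM, near the pseudocount of 0.5, which narrows their log2 range. Colgalt1 averaged 12.4 FPKM in the betaine group, 5.73 FPKM in the knockout and 13.0 FPKM in WT. Atp13a3 (0.10), Camsap2 (0.10) and Ptbp3 (0.11) were nearest to Etnk1 (median 0.58), with Atp13a3 at 11.6 FPKM in the betaine group, 9.40 FPKM in the knockout and 20.6 FPKM in WT. Cog5, Ext1 and Osbpl1a were nearest to Slc44a1 (0.05 to 0.07, median 0.34), Kiz, Ccdc82 and Plxnd1 to Cept1 (0.05 to 0.07, median 0.36), and Rbm33, Ubr4 and Fbxl20 to Chka (0.09 to 0.15, median 0.47). None of these 15 genes was one of the 10 or of the 56 pathway genes.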

How the data were processed

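The authors deposited 1 table of FPKM per gene and library, and no other measurement was used. The submitters' processing notes name DESeq2 1.16.1, featureCounts 1.5.0-p3, HISAT2 2.0.5 and genome build mm10, and state no role for any of them. Per the labels' protocols, libraries were made with an NEBNext Ultra kit from poly-T selected RNA. Symbols were matched for 54409 of 54532 gene IDs, and exon lengths, as merged exons in GENCODE M21 (GRCm38, the assembly of mm10), for 54495. Converted back with these lengths, values of 20 reads or fewer lay within 0.05 of a whole read in 98.3% to 98.6% of cases, which gave 15184973 to 17473958 recovered reads per library. The floor, 3 reads per 1 kb of exon, was 0.162 to 0.222 FPKM and covers counting error alone.

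The 11852 genes averaging 0.5 FPKM or more across the 9 libraries entered the test on log2(FPKM + 0.5) in limma 3.58.1 under R 4.3.3 (lmFit, eBayes with trend and robust), with all 9 libraries in 1 fit, two-sided, adjusted by Benjamini-Hochberg within each comparison at a threshold of 0.05. A fold change on this scale understates that of low genes. Ratios of enzyme pairs were compared by exact permutation in scipy 1.17.1. The fit was also run on simulated reads that held no trend with exon length and no outlying library. That run therefore does not cover these features of the data. The 10 genes, the pathway and marker lists and the tests were chosen with earlier results of these data known. Named genes were the 10, Cth, Pemt, Selenoi, Pcyt1b and the pathway genes past the threshold, or the 8 with the smallest p where more passed; the marker genes, Mboat7, Pla2g6, Nr1h3, Flvcr2, Lpin1 and the sex-linked genes were named for their values. Alternatives were a pseudocount of 0.1, no filter, TPM, own read totals, removal of the length trend (lowess, span 0.3), a replicate block, a fit of the compared groups alone and leaving out each library.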

Additional observations from a re-analysis of the deposited data

How the results depend on the processing

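Leaving out each library in turn gave 0 to 2 of the 9 genes called for betaine minus knockout, 0 to 4 for betaine minus WT, and 1 to 15, 0 to 6 and 2 to 6 pathway genes for knockout minus WT, betaine minus knockout and betaine minus WT. Of these, the betaine-minus-WT count of the 9 was 1 without WT replicate 1 or 2, 4 without WT replicate 3 and 0 without betaine replicate 3, and the betaine-minus-knockout count of pathway genes was 6 without betaine replicate 1 and 2 without WT replicate 3. Over all 11852 genes, betaine minus WT had 578, 638 and 1421 calls without WT replicate 1, 2 and 3, and 351 without betaine replicate 3. Betaine minus knockout had 878 without betaine replicate 1 and 273 without WT replicate 3, against 5 with all libraries. Without a filter, 5 and 4 pathway genes were called in the knockout and the betaine group against WT, as were 1865 and 531 of all 25420 genes. On the TPM scale 2 of the 9 and 11 pathway genes were called for betaine minus knockout, and on own read totals 1 pathway gene. These scales called 1754 and 67 of all genes in that comparison. With only the compared groups, 0 of the 9 and 2 pathway genes were called for betaine minus WT (353 over all genes). For betaine minus knockout it was 2 pathway genes (35 over all genes). Etnk1 was then at adjusted p = 0.0550 and Cept1 at 0.0727 (limma) for betaine minus WT. Removing the length trend and WT replicate 3, chosen after seeing the data, gave 7 pathway genes for knockout minus WT and 2 for betaine minus knockout (1842 and 211 over all genes). The cause of these shifts was not tested. A replicate block called 2 of the 9 for knockout minus WT, 1 for betaine minus WT, and 5 and 4 pathway genes for the knockout and the betaine group against WT. Over all genes it called 2210 and 671 in these comparisons. Replicate numbers carried no stated pairing. Same-numbered libraries correlated at 0.05 to 0.1 for knockout and WT and at -0.23 to -0.03 for betaine and knockout. Knockout and WT libraries of different number correlated at -0.09 to 0. Each knockout library correlated highest with its own number in WT, by small margins, and the other comparisons did not show this. Whether those margins reflect a pairing was not tested.

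Genes not called with all libraries changed sign as follows. On the TPM scale, knockout minus WT was -0.30 for Chpt1, -0.14 for Pcyt2 and -0.13 for Lpcat3, betaine minus knockout 0.27 for Chpt1, 0.0399 for Cept1 and 0.26 for Lpcat3, and betaine minus WT -0.0266 for Chpt1. The medians of all genes on that scale were -0.36, 0.33 and -0.0431 in these comparisons. On own read totals, Chpt1 was at -0.0121 for knockout minus WT and 0.0979 for betaine minus knockout, where Lpcat3 was at 0.0852. With the length trend removed, Chka (0.16) and Etnk2 (0.0289) turned for knockout minus WT and Slc44a1 (0.0183) for betaine minus WT. Without WT replicate 3 as well, these were 0.0288, 0.446 and 0.125, of which Etnk2 was then called (adjusted p = 0.0456, limma), and Chpt1 was at -0.0654 and -0.25 for the knockout and the betaine group against WT. Leaving out a library gave, for knockout minus WT, -0.31 to 0.38 for Chpt1 and -0.33 to 0.36 for Etnk2; for betaine minus WT, -0.40 to 0.29 for Chpt1, -0.18 to 0.52 for Etnk2, -0.27 to 0.0453 for Pcyt2, -0.22 to 0.00889 for Slc44a1 and -0.0155 to 0.32 for Lpcat3; and for betaine minus knockout, -0.30 to 0.0321 for Lpcat3. The Chka to Chkb ratio, betaine minus knockout, was 0.22 with a pseudocount of 0.1 and -0.26 with 0.5. Without 1 library, the ratio differences ranged from -0.11 to 0.20 (Etnk1 to Etnk2, betaine minus knockout), -0.49 to 0.20 (Pcyt1a to Pcyt2, betaine minus WT) and -0.10 to 0.65 (Chpt1 to Cept1, knockout minus WT). Over all genes, calls in the order knockout minus WT, betaine minus knockout and betaine minus WT were 3029, 5 and 1381, against 1865, 1 and 531 with no filter, 2210, 0 and 671 with the block, and 2891, 35 and 353 with only the compared groups. Leaving out a library gave 896 (without knockout replicate 2) to 3231, 0 to 878 (without betaine replicate 1) and 351 (without betaine replicate 3) to 1441. The planned edgeR test on recovered reads was not run. Chkb, at 0 to 11 reads per library, was the 1 gene of the 10 under the filter.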
